A study of Mus musculus with 20 samples.

Results

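The genes of antigen presentation by the major histocompatibility complex (MHC) were followed through 20 mouse nerve tumors. They were taken as all rows of the deposited count table whose symbol starts with H2-, together with Cd74, Ciita, B2m, Tap1, Tap2, Tapbp, Psmb8, Psmb9, Psmb10, Nlrc5 and Erap1. This gave 55 genes of 24062. They comprised 3 classical class I heavy chains, 29 class Ib genes, 6 genes of class I loading and control, 3 immunoproteasome subunits and 12 class II genes. The other 2, H2-Ke2 (prefoldin subunit 6) and H2-Ke6 (Hsd17b8), lie among the MHC genes but have other functions. Of the 55 genes, 41 passed the filter on low counts and were tested, and 6 had 0 counts in every library.

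The tumors were 4 GEM-PNST, 4 paraspinal tumors (2 of subgroup 2 and 2 of subgroup 1) and 12 neurofibromas, 1 library each, all on the C57BL/6J strain. GEM-PNST and paraspinal tumors came from Ink4a/Arf+/-; Nf1fl/fl; DhhCre mice and neurofibromas from Nf1fl/fl; DhhCre mice. DhhCre drives recombination in cells of Schwann lineage, so all groups lack Nf1 there, while other cells of the tumor keep it. No drug was given, and the labels state no age and leave unsaid whether each library had an animal of its own. Column names differ only in letters between neurofibromas 8 and 9, between the 2 subgroup 2 libraries, and between subgroup 1 library 1 and GEM-PNST 2. Whether such libraries share an animal is not stated, and the tests treat all libraries as independent. All GEM-PNST and paraspinal libraries came from 1 sequencing run (run C), neurofibromas 1 to 6 from run A and 7 to 12 from run B. In any comparison with neurofibroma, stage, Ink4a/Arf genotype and run therefore cannot be told apart. The labels call the paraspinal subgroups sub-clusters, so these may have been drawn from the same expression values. Total counts were 16282605 to 22218382 in GEM-PNST, 18474071 to 24314222 in paraspinal and 9900759 to 17594164 in neurofibroma libraries. Levels are given as CPM, counts brought to a common library total and adjusted by TMM factors over all 20 libraries, and are not corrected for gene length, so they are compared between libraries and not between genes.

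Some GEM-PNST libraries stood apart in genes other than these. The summed level of 8 Schwann cell markers was 2.44, 3.79, 1011 and 25.7 CPM in GEM-PNST 1 to 4, against 4828 to 9386 CPM in paraspinal and 1767 to 5045 CPM in neurofibroma libraries. In GEM-PNST 1 all 8 Schwann markers lay below 1 CPM, and the sum of 6 fibroblast markers was 126 CPM, against 1062 CPM or more in every other library. In GEM-PNST 3 the sum of 14 salivary gland markers was 40599 CPM, against at most 84.6 CPM in the others. Nf1, the gene targeted in all groups, had 22.5 to 30.7 CPM in GEM-PNST, 35.9 to 89.9 CPM in paraspinal and 218 to 276 CPM in neurofibroma libraries, and so divided them in the same way as the sequencing runs. Cdkn2a, the Ink4a/Arf gene, had 0.541 to 9.88 CPM in GEM-PNST, 7.93 to 36.3 CPM in paraspinal and 0.0860 to 1.43 CPM in neurofibroma libraries. The sum of 5 markers of all leukocytes was 10857 CPM in GEM-PNST 1, where each of the 5 was highest of the 20 libraries, and 505, 1682 and 1107 CPM in GEM-PNST 2 to 4, against 152 to 432 CPM in paraspinal and 66.4 to 617 CPM in neurofibroma libraries. Levels in GEM-PNST are therefore mostly given by library, and calls lost without libraries 1 and 3, or without 1 alone, are named.

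Class I molecules, a heavy chain paired with beta 2 microglobulin, display peptides from inside the cell to CD8 T cells, and almost all nucleated cells carry them. The peptides are cut by the proteasome, in inflamed tissue by its immunoproteasome form, carried into the endoplasmic reticulum by TAP, trimmed by ERAP1 and loaded with the help of tapasin. Class II molecules, an alpha and a beta chain, display peptides from engulfed material to CD4 T cells and are made mainly by dendritic cells, macrophages and B cells. The invariant chain Cd74 guards them until H2-DM exchanges its remnant for a peptide, a step that H2-O restrains. The coactivators CIITA and NLRC5 switch on class II and class I genes, and neither binds DNA itself. Both act through factors on a shared promoter element, which ends in an inverted CCAAT box bound by NF-Y. Mice of the b haplotype, such as C57BL/6, make no E alpha chain and carry no H2-L gene.

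Of the 55 genes, 50 had a position in GENCODE vM21 (GRCm38, the coordinates of mm10), and 44 of them lay on chromosome 17 between 33915899 and 37483552. B2m lies on chromosome 2 (122147686 to 122153083) and Ciita on chromosome 16 (10480059 to 10528418). Promoters of 38 of the genes were found in RefSeq (GRCm38.p6), 250 bases before to 50 after the start. Of their 41 windows, 34 (82.9%) held CCAAT on either strand, against 37.4% of all 32851 promoter windows. Many class Ib genes are copies of each other, so their windows are not independent. CCAAT was present for all 8 class II genes with a window and for both H2-K1 and H2-D1. For H2-DMa it was in only 1 of 2 windows, and there outside the 150 bases before the start. The interferon response core GAAANNGAAA was in 4 of the 41 windows (9.76%, against 3.44% of all windows), those of B2m, Erap1, H2-T23 and H2-T22. The STAT site TTCNNNGAA was searched as well. It was in 4 of the 41 windows (9.76%), near the 8.3% of all windows. Both strands were searched, and motifs were allowed to overlap. The 150 bases before the start of 3 class II genes, 2 classical class I genes, B2m and H2-T23 are shown to let the shared element be compared, with motif matches in capitals (ATTGG is CCAAT on the other strand). They are H2-Aa (chr17:34287824-34287973, minus strand), H2-Eb1 (chr17:34305717-34305866, plus), H2-DMb1 (chr17:34153041-34153190, plus), H2-K1 (chr17:34000348-34000497, minus), H2-D1 (chr17:35262944-35263093, plus), B2m (chr2:122147537-122147686, plus) and H2-T23 (chr17:36032702-36032851, minus).
H2-Aa: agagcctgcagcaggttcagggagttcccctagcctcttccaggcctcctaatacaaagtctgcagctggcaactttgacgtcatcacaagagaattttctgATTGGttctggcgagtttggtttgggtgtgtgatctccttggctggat
H2-Eb1: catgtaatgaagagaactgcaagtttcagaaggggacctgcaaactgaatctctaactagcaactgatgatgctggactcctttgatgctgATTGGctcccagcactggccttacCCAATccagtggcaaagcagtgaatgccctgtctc
H2-DMb1: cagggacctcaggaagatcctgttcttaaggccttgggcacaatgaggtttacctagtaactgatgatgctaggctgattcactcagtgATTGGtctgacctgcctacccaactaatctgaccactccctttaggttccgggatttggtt
H2-K1: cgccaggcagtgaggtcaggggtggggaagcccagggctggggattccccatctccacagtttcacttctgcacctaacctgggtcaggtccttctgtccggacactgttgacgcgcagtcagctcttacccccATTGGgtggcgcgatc
H2-D1: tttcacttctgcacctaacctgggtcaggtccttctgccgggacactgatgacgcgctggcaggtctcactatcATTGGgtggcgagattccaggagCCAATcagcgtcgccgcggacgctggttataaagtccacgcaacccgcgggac
B2m: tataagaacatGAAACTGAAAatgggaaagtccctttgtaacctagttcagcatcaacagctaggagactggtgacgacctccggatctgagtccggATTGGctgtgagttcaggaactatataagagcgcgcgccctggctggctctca
H2-T23: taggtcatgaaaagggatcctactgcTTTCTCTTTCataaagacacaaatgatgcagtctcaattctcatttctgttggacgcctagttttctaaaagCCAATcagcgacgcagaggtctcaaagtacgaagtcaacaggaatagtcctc

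The 55 genes together took 10.5%, 0.448%, 2.91% and 1.01% of the counts of GEM-PNST libraries 1 to 4, against 0.332% to 0.786% in paraspinal and 0.0928% to 1.02% in neurofibroma libraries. GEM-PNST 1, 3 and 4 thus lay above every paraspinal library and GEM-PNST 2 lay within their range. Ranked over the 4 GEM-PNST libraries, GEM-PNST 1 was highest in 28 of the 41 tested genes and GEM-PNST 3 in 12, while GEM-PNST 2 was lowest in 37. The heat map of levels by library shows this as a dark column, of low values, for GEM-PNST 2 between brighter neighbors.

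**Figure D1:**
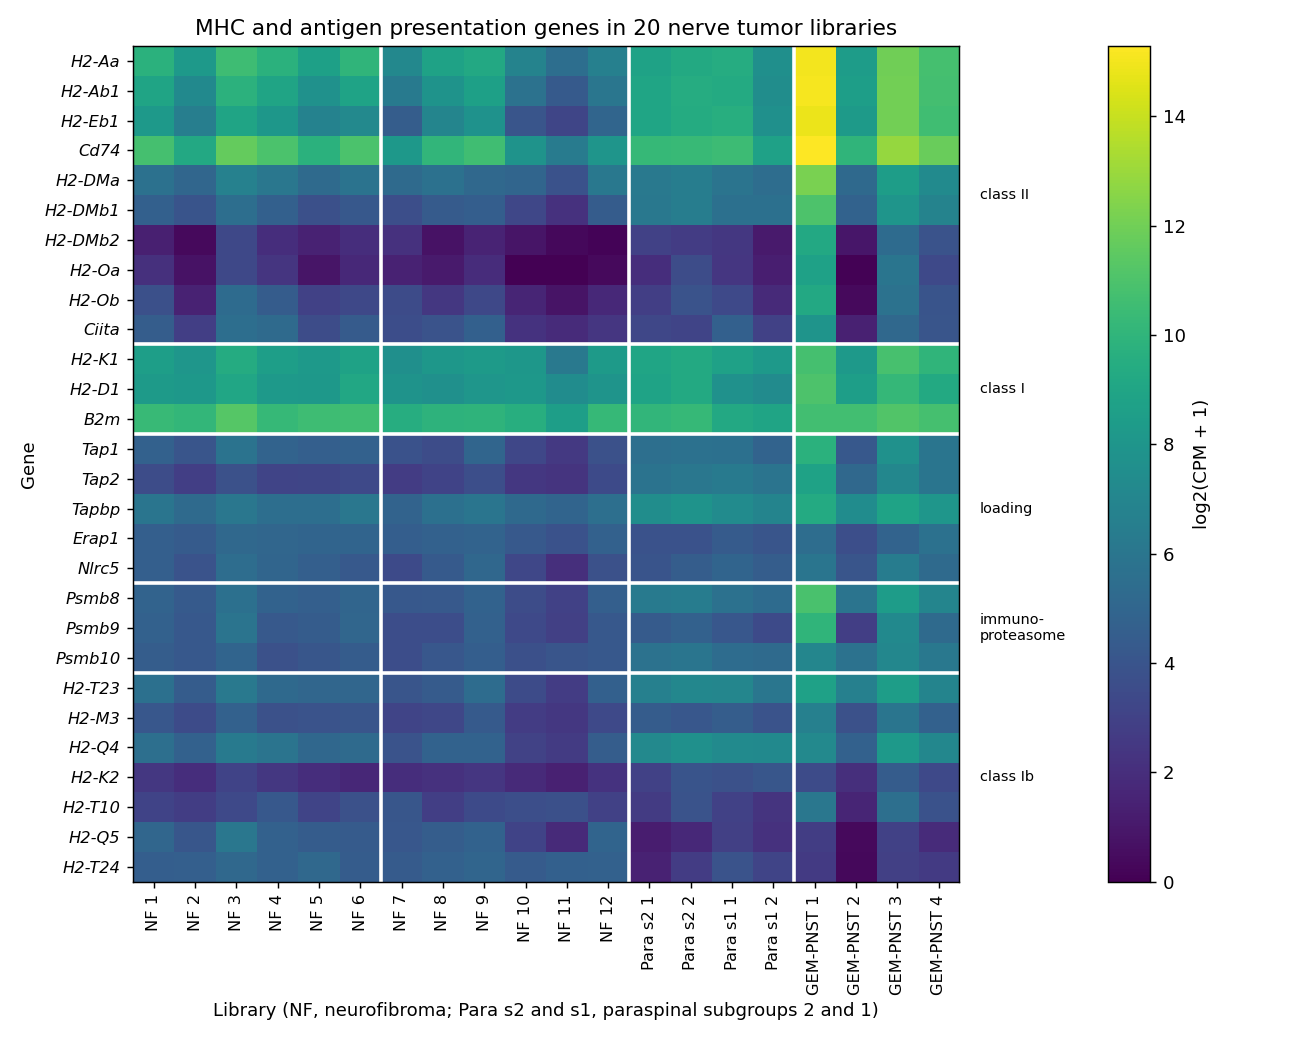
Levels of 28 of the antigen presentation genes (rows, grouped by class) in each of the 20 libraries (columns), as log2(CPM + 1), from dark for low to yellow for high. Vertical white lines part neurofibroma run A, neurofibroma run B, paraspinal and GEM-PNST libraries. The class II rows are highest in GEM-PNST 1, where H2-Ab1 had 34568 CPM.

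The question of each comparison was which of these genes differ between tumor stages. No gene of the 41 passed the threshold (adjusted p below 0.05, edgeR quasi-likelihood test) between GEM-PNST and paraspinal tumors, where 10.2% of all genes did (2.48% higher and 7.69% lower), and 24 had an unadjusted p under 0.05, against 32.7% of all genes. Their log2 fold changes were positive in 36 of 41 and had a median of 2.01, against 0 over all genes tested. Between GEM-PNST and neurofibroma 33 genes passed (73.1% of all genes did), of which 30 rose (35% of all genes rose) and 3 fell (38.1% fell). In 7 of them every GEM-PNST library lay above every neurofibroma (21.3% of all genes) and in 1 below (25.2%). Between paraspinal tumors and neurofibroma 18 passed (59.4%), of which 13 rose (30.2%) and 5 fell (29.2%), and the groups lay apart upward in 7 (18.4%) and downward in 2 (18.1%), with a median log2 fold change of 0.26 against -0.02 over all genes. Against neurofibroma run A alone 27 genes passed in GEM-PNST (65.1% of all genes) and 16 in paraspinal tumors (56.6%). Against run B alone 34 (64.4%) and 22 (52.6%) did. These 3 comparisons share libraries and are not independent. The share that rose in GEM-PNST against neurofibroma was above the background, and the share that changed in paraspinal tumors was not.

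The counts for GEM-PNST depended on which libraries and which fit were used. Without GEM-PNST 2, 12 genes were higher than in paraspinal tumors, among them H2-Aa, H2-Ab1, H2-Eb1, H2-DMa, H2-DMb2, Cd74, Psmb8, Psmb9, H2-K1 and Erap1. In that fit 2.45% of all genes were higher. DESeq2 called 14 higher and 1 lower over all GEM-PNST and paraspinal libraries, where it called 12.4% of all genes higher and 17.1% lower. A fit of all 20 libraries together called 25 of the 41 higher, and 23.1% of all genes. Against neurofibroma, 9 rose (32.1% of all genes did) and 3 fell (37.8%) once GEM-PNST 1 and 3 were left out, so 12 of the 41 passed in place of 33, while the share of all genes that passed was 69.9% in place of 73.1%.

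Class II chains had their highest levels in GEM-PNST 1 and their lowest GEM-PNST levels in library 2. H2-Ab1, the A beta chain (chromosome 17, 34257689 to 34269419), had 34568, 378, 4122 and 1650.1 CPM in GEM-PNST 1 to 4, against 509 and 701 CPM in subgroup 2 and 647 and 179 CPM in subgroup 1 paraspinal libraries, and 19.2, 224 and 891 CPM as the lowest, median and highest of 12 neurofibromas. GEM-PNST 1, 3 and 4 lay above all 16 other tumors, and GEM-PNST 2 lay inside both other groups. H2-Aa, its alpha partner (chromosome 17, 34282744 to 34287823), had 33708, 352, 4101 and 1789 CPM in GEM-PNST, against 452 and 617 CPM in subgroup 2 and 716 and 196 CPM in subgroup 1, and 45.2, 425 and 1499.9 CPM in neurofibroma. H2-Eb1, the E beta chain (chromosome 17, 34305867 to 34316674), had 29191, 325, 4165 and 1519.8 CPM in GEM-PNST, 500.2 and 673 CPM in subgroup 2, 762 and 202 CPM in subgroup 1, and 8.35, 115 and 488 CPM in neurofibroma. The order of the GEM-PNST libraries was the same for these chains.

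Against paraspinal tumors the log2 fold change of H2-Ab1 was 4.18 ± 1.33 (SE, adjusted p = 0.0773), that of H2-Aa 4.19 ± 1.32 (0.0748) and that of H2-Eb1 3.90 ± 1.29 (0.0833), so a change of about 4 on the log2 scale did not pass at this spread. Without GEM-PNST 1 and 3 the H2-Ab1 value was 0.95 (adjusted p = 0.403). Against neurofibroma all 3 chains rose, H2-Ab1 by 5.07 ± 0.89 (adjusted p = 8.45e-05), H2-Aa by 4.20 ± 0.86 (0.000343) and H2-Eb1 by 5.82 ± 0.96 (4.38e-05). Leaving out GEM-PNST 1 brought these to 2.74, 1.92 and 3.66, each still past the threshold. By limma-voom H2-Ab1 (3.27, adjusted p = 0.0564) and H2-Aa (2.43, 0.128) did not pass. Nor did they pass in an edgeR fit with the replicate number as a block (2.57, 0.0883, and 1.73, 0.209). In paraspinal tumors against neurofibroma only H2-Eb1 of the 3 passed, at 1.80 ± 0.74 (adjusted p = 0.0442), and it did not pass against run A alone (1.09, adjusted p = 0.0879) while it did against run B alone (2.93, 0.014). H2-Ab1 (0.78 ± 0.70, adjusted p = 0.351) and H2-Aa (-0.11 ± 0.70, 0.907) did not pass.

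The helpers of class II loading had the same order of libraries. Cd74 had 39988, 1018, 7411 and 3533 CPM in GEM-PNST 1 to 4, against 1229 and 1272 CPM in subgroup 2 and 1428 and 433 CPM in subgroup 1, and 80.7, 984 and 3258 CPM in neurofibroma. H2-DMa, a chain of the peptide exchanger, had 4699, 36, 367 and 156 CPM in GEM-PNST, 70.5 and 88.3 CPM in subgroup 2, 57 and 43.7 CPM in subgroup 1, and 13.7, 44.9 and 103 CPM in neurofibroma. GEM-PNST 2 lay below every paraspinal library in H2-DMa but not in Cd74. Its partners H2-DMb1 and H2-DMb2 had 2083, 27.2, 255 and 114 CPM, and 590.5, 0.92, 38.9 and 14.3 CPM, in GEM-PNST. In paraspinal libraries H2-DMb1 had 49.6 to 86.6 CPM and H2-DMb2 1.11 to 6.81 CPM, and in neurofibroma 3.44 to 45 CPM and 0.101 to 9.05 CPM. Of the restraining pair, H2-Oa had 426, 0.0541, 60.8 and 9.23 CPM and H2-Ob 607, 0.325, 53 and 14.7 CPM in GEM-PNST. Both were at most 14.2 CPM in paraspinal libraries, and H2-Ob, a transcript typical of B cells and some dendritic cells, reached 40.1 CPM in neurofibroma 3.

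Of the 12 class II genes, 11 rose in GEM-PNST against neurofibroma (35% of all genes did). Against paraspinal tumors 0 passed (10.2% of all genes did), and 10 had an unadjusted edgeR p under 0.05 (32.7%). All 12 log2 fold changes there were positive, with a median of 4.19. In paraspinal tumors 2 rose against neurofibroma (30.2% of all genes did). The rise against neurofibroma was 3.46 ± 0.79 for Cd74 (adjusted p = 0.000952), 4.74 ± 0.72 for H2-DMa (1.95e-05), 5.02 ± 0.69 for H2-DMb1 (6.94e-06), 6.17 ± 1.03 for H2-DMb2 (4.96e-05), 5.77 ± 1.13 for H2-Oa (0.000236) and 4.05 ± 1.01 for H2-Ob (0.00185). Without GEM-PNST 1, Cd74 (1.74, adjusted p = 0.0521), H2-Ob (1.13, 0.304), H2-Eb2 and Ciita no longer passed, and 7 of the 11 did. Without GEM-PNST 1 and 3, only H2-Eb1 (2.58) and H2-DMb1 (1.90) of the 11 passed. By limma-voom Cd74 (2.29, adjusted p = 0.152), H2-Oa (3.01, 0.065), H2-Ob (1.17, 0.366), H2-Eb2 (2.32, 0.171) and Ciita (0.33, 0.772) did not pass. In the edgeR fit with the replicate number as a block, H2-DMa (2.03, 0.207), H2-DMb1 (2.74, 0.0796) and H2-DMb2 (3.04, 0.123) did not pass either. H2-DMb1 also rose in paraspinal tumors, by 1.75 ± 0.39 (adjusted p = 0.000901), where its levels did not overlap those of neurofibroma, and by 1.38 and 2.12 against runs A and B alone. H2-Eb2, a second E beta gene of low level, had 23.7, 0, 3.38 and 2.27 CPM in GEM-PNST, at most 0.869 CPM in paraspinal and 5.27 CPM in neurofibroma libraries.

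Ciita, the class II coactivator, had 244, 1.62, 35.4 and 15.5 CPM in GEM-PNST 1 to 4, against 8.57 and 7.67 CPM in subgroup 2 and 25.2 and 6.87 CPM in subgroup 1, and 2.75, 12.6 and 44.8 CPM in neurofibroma. Only GEM-PNST 1 lay above all neurofibromas, and GEM-PNST 2 lay below all 19 other libraries. Its log2 fold change was 2.48 ± 1.23 against paraspinal tumors (adjusted p = 0.198) and it rose by 2.11 ± 0.81 against neurofibroma (0.0267). That call rested on GEM-PNST 1: without it the value was 0.01, and without 1 and 3 it was -1.003 (adjusted p = 0.395).

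Markers of cells that carry class II also varied between the GEM-PNST libraries. The sum of 11 macrophage markers was 8471, 2247, 5699 and 7699 CPM in GEM-PNST 1 to 4, against 638 to 2600 CPM in paraspinal and 135 to 1910 CPM in neurofibroma libraries. The sum of 10 dendritic cell markers was 1831, 73.6, 609 and 104 CPM in GEM-PNST, 42.4 to 109.9 CPM in paraspinal and 31.1 to 167 CPM in neurofibroma libraries. For 7 B cell markers it was 305, 2.06, 28.6 and 131 CPM in GEM-PNST, 3.10 to 10.2 CPM in paraspinal and 5.80 to 148 CPM in neurofibroma libraries. In GEM-PNST 1 the B cell sum was almost wholly Cd22, and 6 of the 7 genes lay below 1 CPM. From highest to lowest, the class II chains ran through libraries 1, 3, 4 and 2, as did the dendritic sum and the sum over all leukocytes. Library 1 was highest and library 2 lowest in the macrophage and B cell sums as well. In those sums library 4 lay above library 3, and in the macrophage sum it stood near library 1. Gene by gene, 6 of the 11 macrophage markers lay above all paraspinal libraries in library 1. In library 2 it was 5, and in libraries 3 and 4 all 11. Library 1 was highest of the 20 libraries in 4 of the 11, library 3 in 1 and library 4 in 5. No macrophage or dendritic gene was at 0 in all libraries of a group, but 7 of 10 dendritic genes lay below 1 CPM in GEM-PNST 2, among them Flt3 at 0.162 CPM, and 2 of 10 did so in GEM-PNST 1. In bulk tissue fewer cells of a type and less RNA per cell cannot be told apart, and the part of these cells in the class II levels was not tested.

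Classical class I genes spanned a narrower range across the GEM-PNST libraries. H2-K1 (chromosome 17, 33996017 to 34000347) had 1772, 313, 1839 and 1004 CPM in GEM-PNST 1 to 4, against 515 and 613 CPM in subgroup 2 and 437 and 296 CPM in subgroup 1, and 71.1, 311 and 686 CPM in neurofibroma. H2-D1 (chromosome 17, 35262730 to 35267499) had 2041, 371, 1162 and 630.2 CPM in GEM-PNST, 472 and 613 CPM in subgroup 2, 212 and 167 CPM in subgroup 1, and 175, 281 and 563 CPM in neurofibroma. B2m, their shared light chain, had 1637, 1608, 2231 and 1753 CPM in GEM-PNST, 1055 and 1211 CPM in subgroup 2, 589 and 488 CPM in subgroup 1, and 371, 1144 and 2423 CPM in neurofibroma. For B2m the 4 GEM-PNST libraries lay close together and above all paraspinal ones, which held for no other of the 41 genes (11.2% of all genes were so placed).

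H2-K1 rose in GEM-PNST against neurofibroma by 1.90 ± 0.41 (adjusted p = 0.000568) and H2-D1 by 1.75 ± 0.35 (0.000254), while B2m did not pass (0.61 ± 0.33, 0.102). Neither heavy chain passed without GEM-PNST 1 and 3 (1.01 and 0.70, adjusted p of 0.0877 and 0.0897). Against paraspinal tumors the values were 1.33 ± 0.56 (adjusted p = 0.139), 1.43 ± 0.63 (0.155) and 1.04 ± 0.41 (0.117). Between paraspinal tumors and neurofibroma they were 0.51 (0.232), 0.26 (0.53) and -0.49 (0.273). The B2m value there was -0.92 against run A alone, which passed (0.0336), and 0.0025 against run B alone (0.996). Heavy chain genes are near-identical in parts and may split reads, so 19 class I rows were also summed to 1 before the fit. The sum rose by 1.80 ± 0.35 in GEM-PNST against neurofibroma (adjusted p = 0.000249) and did not pass against paraspinal tumors (1.20 ± 0.57, 0.179). The row for H2-L, a gene that the b haplotype lacks, held 13 counts over 20 libraries.

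Among the class I loading genes, Tap2 and Tapbp set the neurofibromas apart from the libraries of run C. Tap2, a subunit of the peptide transporter (chromosome 17, 34203527 to 34216321), had 444, 34.5, 134 and 60.9 CPM in GEM-PNST 1 to 4, against 54.8 and 65 CPM in subgroup 2 and 74.4 and 58.3 CPM in subgroup 1, and 3.96, 8.07 and 13.1 CPM in neurofibroma. Tapbp (tapasin; chromosome 17, 33915899 to 33929292) had 648, 176, 459 and 265 CPM in GEM-PNST, 181 and 229 CPM in subgroup 2, 163 and 118 CPM in subgroup 1, and 27.7, 46.3 and 66.6 CPM in neurofibroma. All 8 libraries of run C lay above all 12 neurofibromas for both genes. Tap1, the other transporter subunit (chromosome 17, 34187553 to 34197225), had 874, 17.3, 213 and 59.7 CPM in GEM-PNST, 46.8 and 50.3 CPM in subgroup 2, 49 and 28.7 CPM in subgroup 1, and 4.9, 19.4 and 56.4 CPM in neurofibroma, where the groups overlapped.

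Tap2 rose by 2.93 ± 0.24 (adjusted p = 2.07e-08) and Tapbp by 1.86 ± 0.21 (1.14e-06) in paraspinal tumors against neurofibroma, and by 4.33 ± 0.44 (1.96e-07) and 3.01 ± 0.27 (4.79e-08) in GEM-PNST. Both also passed against run A alone (2.69 and 1.62) and run B alone (3.12 and 2.06), and with GEM-PNST 1 and 3 left out (2.52 and 2.21). Tap1 rose by 3.74 ± 0.65 in GEM-PNST (adjusted p = 7.79e-05) and by 1.03 ± 0.43 in paraspinal tumors (0.0484), the second not against run A alone (0.50, 0.213) and the first not without GEM-PNST 1 and 3 (0.84, 0.247). Against paraspinal tumors none of the 3 passed in GEM-PNST, at 1.30 ± 0.70 for Tap2, 1.08 ± 0.44 for Tapbp and 2.61 ± 1.02 for Tap1 (adjusted p of 0.231, 0.129 and 0.12).

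Erap1, the trimming peptidase, had 43.3, 11.9, 28.4 and 50.7 CPM in GEM-PNST, against 13.4 and 13.2 CPM in subgroup 2 and 19.7 and 15.6 CPM in subgroup 1, and 13.5, 26.3 and 35.5 CPM in neurofibroma. It fell by 0.72 ± 0.21 in paraspinal tumors against neurofibroma (adjusted p = 0.00759), a call that did not hold against run B alone (-0.56, 0.064) and, of the subgroups, held for subgroup 2 alone (-0.98, 0.00976) and not for subgroup 1 alone (-0.51, 0.163). Nlrc5, the class I coactivator, had 59.6, 15.2, 85.5 and 38 CPM in GEM-PNST, against 15 and 21.8 CPM in subgroup 2 and 30 and 21.9 CPM in subgroup 1, and 3.1, 18.6 and 43.1 CPM in neurofibroma. It rose by 1.30 ± 0.48 in GEM-PNST against neurofibroma (adjusted p = 0.0233), and did not pass without GEM-PNST 1 (1.17, 0.0623). Of the 6 loading and control genes, B2m counted among them, 4 rose in GEM-PNST against neurofibroma (35% of all genes did). In paraspinal tumors 3 rose and 1 fell (30.2% and 29.2% of all genes).

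The immunoproteasome subunits replace the standard catalytic subunits of the proteasome. Psmb8 (chromosome 17, 34197721 to 34201454) had 1933, 59, 347 and 124 CPM in GEM-PNST 1 to 4, against 78.6 and 82.9 CPM in subgroup 2 and 51.6 and 39.9 CPM in subgroup 1, and 6.71, 23.7 and 49.8 CPM in neurofibroma. Psmb9 (chromosome 17, 34181987 to 34187764) had 1015, 6.11, 149.5 and 38.8 CPM in GEM-PNST, 19.7 and 25.9 CPM in subgroup 2, 16.9 and 9.75 CPM in subgroup 1, and 6.37, 18 and 58.8 CPM in neurofibroma. Psmb10 had 127, 52.8, 131 and 69.3 CPM in GEM-PNST, 52.4 and 61.7 CPM in subgroup 2, 41.7 and 37.6 CPM in subgroup 1, and 11.1, 17.1 and 30 CPM in neurofibroma. GEM-PNST 1 was far above the other GEM-PNST libraries in Psmb8 and Psmb9, but level with GEM-PNST 3 in Psmb10.

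All 3 subunits rose in GEM-PNST against neurofibroma (35% of all genes did). Psmb8 rose by 4.68 ± 0.59 (adjusted p = 2.49e-06), Psmb9 by 3.81 ± 0.73 (0.000199) and Psmb10 by 2.39 ± 0.25 (2.4e-07). Each also rose without GEM-PNST 1 (2.86, 1.57 and 2.19). Psmb9 did not pass without GEM-PNST 1 and 3 (0.08, 0.925), by limma-voom (1.47, 0.0952) or with the replicate number as a block (1.36, 0.401). In paraspinal tumors Psmb8 rose by 1.42 ± 0.34 (adjusted p = 0.00152) and Psmb10 by 1.43 ± 0.21 (1.71e-05), where 30.2% of all genes rose. Psmb9 had a value of -0.23 (0.68). With the replicate number as a block, neither Psmb8 (1.43, 0.0697) nor Psmb10 (1.30, 0.0524) passed there. Psmb9 and Tap1 lie head to head on opposite strands and their annotations share 212 bases, and no source used here states a strand setting, so reads there cannot be told apart.

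Among the 29 class Ib genes, 16 were tested, and they did not move as 1 group. H2-T23, which encodes Qa-1, a ligand of the NK cell receptor CD94/NKG2A, had 429, 101, 358 and 120.0 CPM in GEM-PNST, 99 and 133 CPM in subgroup 2, 130.5 and 63.4 CPM in subgroup 1, and 5.51, 28 and 71.5 CPM in neurofibroma. It rose by 1.83 ± 0.43 in paraspinal tumors (adjusted p = 0.00136) and by 3.06 ± 0.48 in GEM-PNST (2.45e-05) against neurofibroma, with no overlap in the second. H2-Q4 had 145, 26.2, 307 and 136 CPM in GEM-PNST, 146 and 203 CPM in subgroup 2, 160.3 and 151 CPM in subgroup 1, and 5.33, 27.2 and 77 CPM in neurofibroma. It rose by 2.37 ± 0.46 in paraspinal tumors (0.000263), where the groups did not overlap, and by 2.25 in GEM-PNST (0.00162), where library 2 lay inside the neurofibroma range and the call was lost without libraries 1 and 3 (1.34, 0.102). H2-K2, a transcribed pseudogene, rose by 1.58 in GEM-PNST (0.00116; 0.78, 0.128, without libraries 1 and 3) and by 1.78 in paraspinal tumors (5.25e-05). H2-M5, at most 2.24 CPM in any library, passed in both comparisons with neurofibroma, but neither call held in every fit. It rose by 1.90 in GEM-PNST (0.00395), and did not pass without library 1 (1.30, 0.053) or without 1 and 3 (0.94, 0.25). In paraspinal tumors it rose by 1.18 (0.0425), and did not pass by DESeq2 (1.10, 0.0664), against run A alone (0.96, 0.246) or for subgroup 2 or subgroup 1 alone (0.0855 and 0.226).

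Others fell. H2-T24 (chromosome 17, 36005695 to 36020560) had 4.95, 0.271, 6.47 and 4.94 CPM in GEM-PNST, against 1.7 and 5.66 CPM in subgroup 2 and 14.2 and 7.93 CPM in subgroup 1, and 19.8, 25.2 and 35.6 CPM in neurofibroma. Every neurofibroma lay above every run C library, and H2-T24 fell by 2.65 ± 0.50 in GEM-PNST (adjusted p = 0.000163) and by 1.82 ± 0.36 in paraspinal tumors (0.00035). H2-Q5, which GENCODE lists as a polymorphic pseudogene, had 0.325 to 6.82 CPM in GEM-PNST, 1.31 to 6.37 CPM in paraspinal and 2.58 to 66.1 CPM in neurofibroma libraries, and fell by 2.60 ± 0.74 in GEM-PNST (0.005) and by 2.81 ± 0.64 in paraspinal tumors (0.00121). H2-T3, the thymus leukemia antigen, was at most 0.149 CPM in run C and 0.132 to 8.33 CPM in neurofibroma, and fell in GEM-PNST (adjusted p = 0.00125) and in paraspinal tumors (0.000794). These 3 also fell with GEM-PNST 1 and 3 left out. H2-Q2, at most 3.3 CPM in any library, fell in paraspinal tumors only (0.0144), and no test of that difference between the comparisons was made.

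H2-M3, which presents formylated bacterial peptides, had 101, 12.9, 60 and 25.7 CPM in GEM-PNST, against 14 to 21.4 CPM in paraspinal and 4.65 to 25.4 CPM in neurofibroma libraries, and rose by 1.98 against neurofibroma (adjusted p = 0.000614), but not past the threshold without GEM-PNST 1 and 3 (0.62, 0.261). H2-T10, a ligand of gamma delta T cells, had 66.9, 1.95, 47.6 and 13.4 CPM in GEM-PNST, 3.86 to 14.2 CPM in paraspinal and 5.86 to 17.7 CPM in neurofibroma libraries. Its rise against neurofibroma (1.63, 0.00808) did not pass without GEM-PNST 1 (0.96, 0.114). H2-M9 had 55.7, 0, 0.299 and 2.02 CPM and H2-Bl 9.02, 0, 0.647 and 0.0809 CPM in GEM-PNST, against at most 0.219 CPM of either in paraspinal and 1.59 CPM in neurofibroma libraries. Their calls against neurofibroma (0.00122 and 0.00931) both rested on GEM-PNST 1 (0.88, 0.529, and -0.26, 0.813, without it). H2-Q10, a secreted class I molecule made in liver, had 0.136 to 3.18 CPM in GEM-PNST, 0.62 to 5.4 CPM in paraspinal and 0.594 to 56.9 CPM in neurofibroma libraries. Over all libraries edgeR made no call. DESeq2 called it lower against neurofibroma in GEM-PNST (-3.26, adjusted p = 0.00368) and in paraspinal tumors (-2.25, 0.0425). For paraspinal tumors edgeR called it lower against run B alone (-3.05, 0.0368) and not against run A alone (0.50, 0.555).

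Of the 16 tested class Ib genes, 8 rose and 3 fell in GEM-PNST against neurofibroma (35% and 38.1% of all genes). In paraspinal tumors 4 rose and 4 fell, near the 30.2% and 29.2% of all genes. Of the tested ones without a call, H2-Q1 was at most 3.78 CPM in GEM-PNST and 0.266 CPM in paraspinal libraries and reached 79.4 CPM in neurofibroma 7, H2-M2 was at most 4.53 CPM and H2-M11 at most 1.24 CPM in any library. H2-L, H2-Q8, H2-T22, H2-M1, H2-M10.1, H2-M10.2, H2-M10.4 and H2-M10.5 did not pass the filter, and H2-Q6, H2-Q7, H2-Q9, H2-T9, H2-M10.3 and H2-M10.6 had 0 counts in every library. H2-Q6 to H2-Q9 are close copies, and how reads that match several copies were counted is not given in the sources used here. Of class II, the pseudogene H2-Ea-ps was at 0 in all 4 paraspinal libraries and at most 4.58 CPM elsewhere. H2-Ke2 and H2-Ke6, which do not present antigen, rose as well, by 2.32 and 1.91 in paraspinal tumors (adjusted p of 1.07e-07 and 6.65e-07) and by 3.18 and 2.19 in GEM-PNST (4.36e-09 and 1.18e-06) against neurofibroma, with no overlap in either.

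Class II was then set against class I within each library, as the summed CPM of H2-Aa, H2-Ab1, H2-Eb1 and Cd74 over that of H2-K1, H2-D1 and B2m. The ratio was 25.2, 0.904, 3.78 and 2.51 in GEM-PNST libraries 1 to 4, against 1.32 and 1.34 in subgroup 2 and 2.87 and 1.06 in subgroup 1, and 0.247, 1.04 and 1.90 as the lowest, median and highest neurofibroma. GEM-PNST 1 and 3 lay above all paraspinal libraries and GEM-PNST 2 below all of them. On the log2 scale GEM-PNST exceeded paraspinal tumors by 1.33 on average, less than the pooled SD of 1.49, and by 0.43 without GEM-PNST 1. GEM-PNST exceeded neurofibroma by 2.24 (pooled SD 1.38), and paraspinal tumors exceeded neurofibroma by 0.90 (1.06). Neurofibromas of run A lay between -0.54 and 0.93 on the log2 scale and those of run B between -2.02 and 0.82, with neurofibromas 7, 10, 11 and 12 lowest. The genes had been chosen with earlier results known, so no test was made of this ratio.

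**Figure D2:**
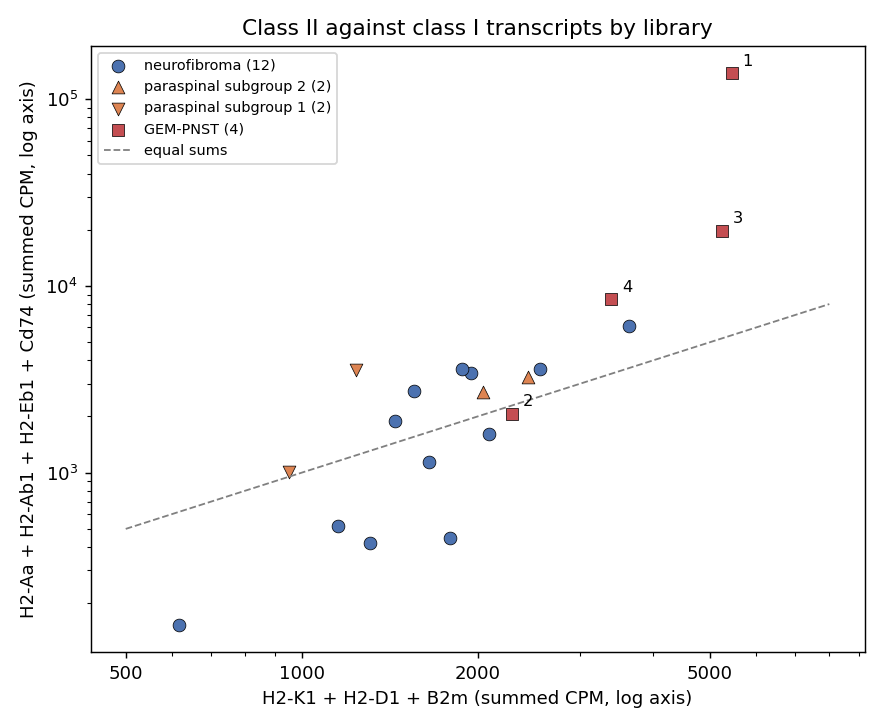
Summed CPM of class II genes (H2-Aa, H2-Ab1, H2-Eb1, Cd74) against that of class I genes (H2-K1, H2-D1, B2m), both on log axes, 1 point per library. The dashed line marks equal sums and serves only as a guide, since CPM are not corrected for gene length. GEM-PNST 1, with a ratio of 25.2, lies far above the line and GEM-PNST 2, with 0.904, just below it.

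The difference between GEM-PNST libraries was seen class by class when each was divided by the paraspinal mean. For 11 class II genes the median fold was 67.9, 0.429, 7.80 and 2.84 in GEM-PNST libraries 1 to 4. It was 30.6, 0.932, 5.48 and 1.97 for the immunoproteasome, 4.69, 0.843, 3.56 and 1.94 for the classical class I genes, 3.28, 0.727, 2.66 and 1.62 for the loading genes and 3.69, 0.186, 3.32 and 1.01 for the class Ib genes. All 11 class II genes were above the paraspinal mean in libraries 1, 3 and 4 and all 11 were below it in library 2.

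**Figure D3:**
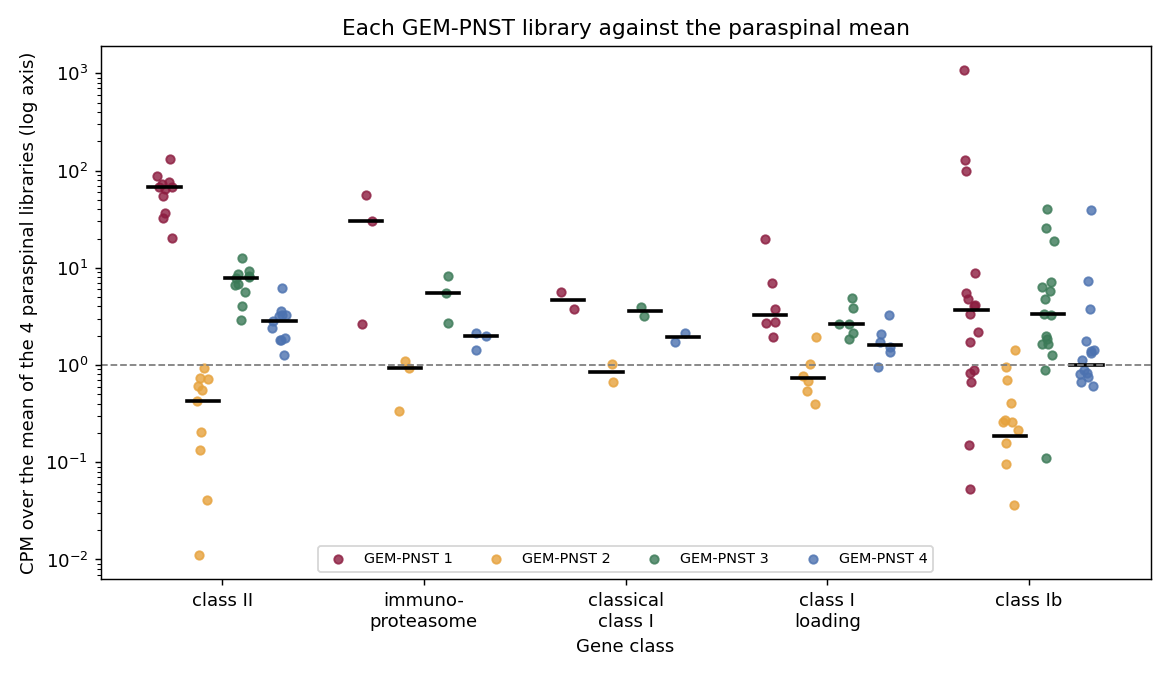
CPM of each gene in each GEM-PNST library over its mean in the 4 paraspinal libraries (log axis), by class, with bars at class medians. Values at 0 (8 of them) are not drawn, and H2-Ea-ps, H2-Ke2 and H2-Ke6 are left out. Class II medians run from 0.429 in library 2 to 67.9 in library 1.

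Ratios between class II chains and between immunoproteasome subunits divided the libraries of run C from the neurofibromas. H2-Eb1 and H2-Aa are chains of different class II molecules. The ratio of H2-Aa to H2-Ab1 counts was 0.931 to 1.08 in GEM-PNST, 0.881 to 1.11 in paraspinal and 1.47 to 2.35 in neurofibroma libraries. H2-Eb1 to H2-Aa was 0.850 to 1.02 in GEM-PNST, 1.03 to 1.11 in paraspinal and 0.132 to 0.374 in neurofibroma libraries. Psmb9 to Psmb8 was 0.104 to 0.525 in GEM-PNST, 0.244 to 0.328 in paraspinal and 0.611 to 1.18 in neurofibroma libraries. None of these 3 ratios overlapped between run C and the neurofibroma runs, while runs A and B overlapped in each (H2-Eb1 to H2-Aa 0.145 to 0.358 and 0.132 to 0.374). GEM-PNST and paraspinal tumors, whose H2-Ab1 levels ran from 179 to 34568 CPM, had H2-Aa to H2-Ab1 ratios in 1 range. The rise of H2-Eb1 and Psmb8 in paraspinal tumors, beside H2-Aa and Psmb9 that did not pass, went with this split. Whether run, stage or Ink4a/Arf genotype sets it cannot be told apart.

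**Figure D4:**
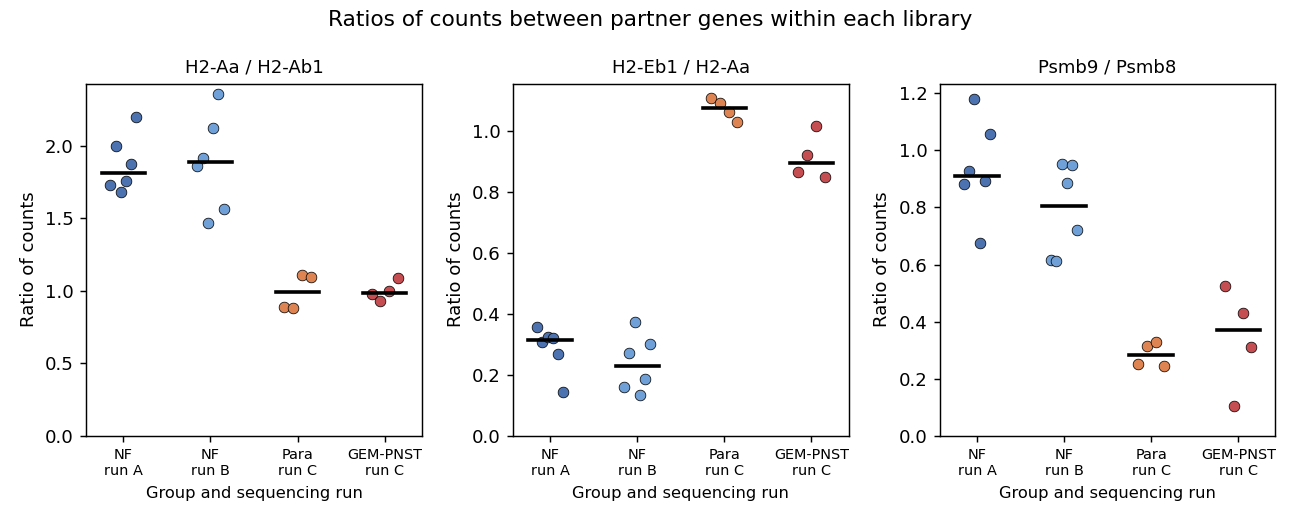
Count ratios of H2-Aa to H2-Ab1, H2-Eb1 to H2-Aa and Psmb9 to Psmb8 in each library, by neurofibroma run A, neurofibroma run B, paraspinal (run C) and GEM-PNST (run C), with bars at medians. The H2-Eb1 to H2-Aa ratio was at most 0.374 in neurofibroma and at least 0.850 in run C.

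Within the 12 neurofibromas 6 pairs of genes were correlated on log2 CPM, with permutation p-values adjusted over the 6 (100000 resamples). Ciita and H2-Ab1 rose and fell together, with r = 0.94 and rho = 0.94 (adjusted permutation p of 3e-05 and 6e-05, both from a raw p of 1e-05, the smallest that these resamples can give), r = 0.95 in run A and 0.93 in run B. Csf1r, the receptor that macrophages depend on, followed H2-Ab1 as closely (r = 0.97, rho = 0.90, adjusted permutation p of 3e-05 and 0.00054, r = 0.90 and 0.97 in runs A and B). Flt3, the receptor of dendritic cell development, did not pass with H2-Ab1 (r = 0.23, rho = 0.42, adjusted permutation p of 0.461 and 0.177), and its r was 0.76 in run A and -0.36 in run B. Without the 2 neurofibromas farthest from the median of the first gene these were 0.90, 0.96 and 0.17.

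For class I, Nlrc5 and H2-K1 had r = 0.89 and rho = 0.79 (adjusted permutation p of 0.00022 and 0.00416), and r = 0.78 and 0.86 in runs A and B. Tap1 and H2-K1 had r = 0.86 and rho = 0.81 (adjusted permutation p of 0.000285 and 0.00414), and r = 0.95 and 0.73. Both rested in part on neurofibroma 3, highest in H2-K1 at 686 CPM, and neurofibroma 11, lowest at 71.1 CPM. Without them r was 0.63 for Nlrc5 and 0.65 for Tap1.

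**Figure D5:**
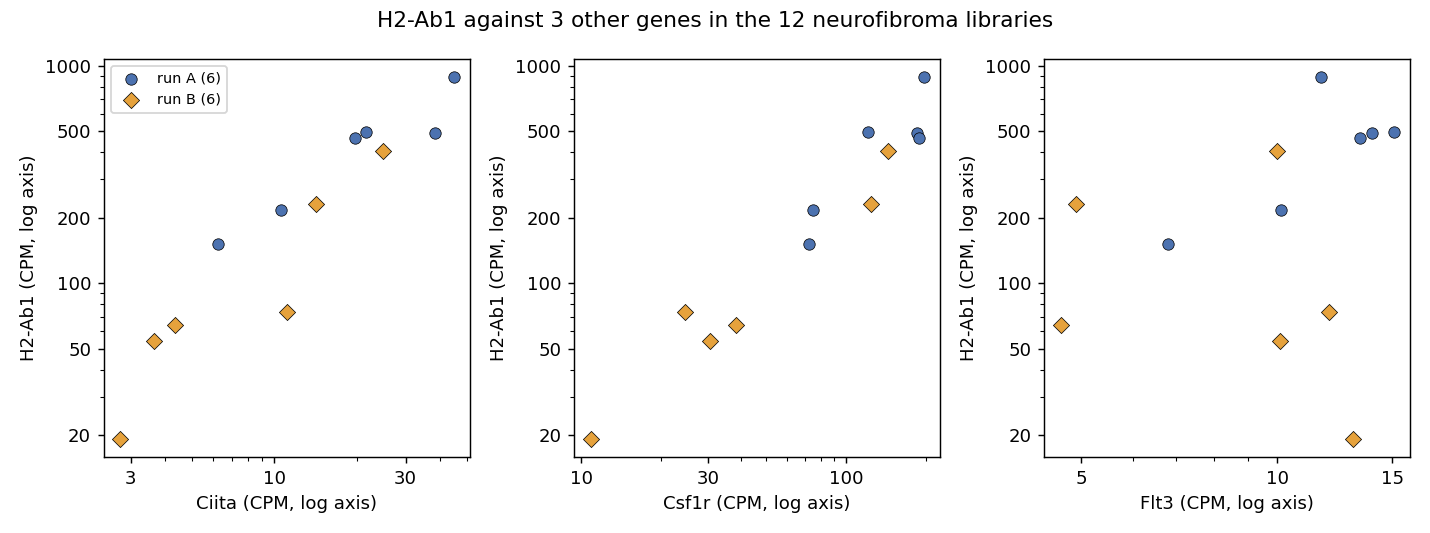
H2-Ab1 against Ciita, Csf1r and Flt3 in the 12 neurofibromas, in CPM on log axes, with runs A and B marked. H2-Ab1 follows Ciita (r = 0.94) and Csf1r (r = 0.97) and not Flt3 (r = 0.23).

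Other genes of the pathways were read from lists. Of 19 further class I pathway genes 1 rose in GEM-PNST against paraspinal tumors and 0 fell (2.48% and 7.69% of all genes). Against neurofibroma 16 rose and 2 fell in GEM-PNST, and 11 rose and 1 fell in paraspinal tumors. Over all genes 73.1% passed in GEM-PNST against neurofibroma (35% rose and 38.1% fell) and 59.4% in paraspinal tumors (30.2% rose and 29.2% fell). The 12 of 19 that passed in paraspinal tumors were thus near the background. The share that rose was above it in both comparisons. The gene that rose was Cd1d1, a class I-like molecule that presents lipids to NKT cells, with 21.8, 15.7, 8.91 and 15 CPM in GEM-PNST, against 2.77 and 4.13 CPM in subgroup 2 and 3.02 and 1.37 CPM in subgroup 1 (2.35 ± 0.47, adjusted p = 0.0217). Unlike the class II genes it was high in all 4 GEM-PNST libraries, library 2 included. Next in that list were Psme1, a proteasome activator subunit (2.16, 0.0696), Hfe, which regulates iron uptake (1.59, 0.0998), and Irf2, an interferon regulatory factor (1.01, 0.102).

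Of 20 further class II pathway genes 18 were tested. None passed in GEM-PNST against paraspinal tumors, and 7 had an unadjusted edgeR p under 0.05 (32.7% of all genes). Against neurofibroma 13 rose and 2 fell in GEM-PNST (35% and 38.1% of all genes). In paraspinal tumors 7 rose and 1 fell (30.2% and 29.2% of all genes). The 8 of 18 in paraspinal tumors were below the 59.4% of all genes that passed there. Lowest in p were Cd86, a costimulatory ligand on antigen-presenting cells, with 491, 7.95, 45.3 and 41.6 CPM in GEM-PNST and 3.37 to 11 CPM in paraspinal libraries (4.19, adjusted p = 0.0587), and Lgmn, a lysosomal protease, with 382 to 610.0 CPM in GEM-PNST and 167 to 289 CPM in paraspinal libraries (1.07, 0.0596).

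Interferon gamma is the main inducer of the genes described here. Of 13 tested genes of its signaling none passed in GEM-PNST against paraspinal tumors (10.2% of all genes did). At an unadjusted edgeR p under 0.05 there were 4 (32.7% of all genes), and the median log2 fold change was 0.71. Against neurofibroma 5 rose and 1 fell, where 73.1% of all genes passed (35% rose and 38.1% fell). Lowest in p were Irf8 and Socs1. Irf8, a factor of myeloid and dendritic cells, had 2408, 38.4, 250.2 and 98 CPM in GEM-PNST and 9.66 to 38.1 CPM in paraspinal libraries (4.49, 0.0618), in the library order of the class II chains. Socs1, an inhibitor of cytokine signaling, had 4.2, 30.6, 26.2 and 25.1 CPM in GEM-PNST, against 2.35 to 7.25 CPM in paraspinal libraries (2.07 ± 0.64, adjusted p = 0.0729), so GEM-PNST 1 lay inside the paraspinal range and the other 3 above it.

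Against neurofibroma, the paraspinal calls of H2-Eb1 (1.88 and 1.67, adjusted p of 0.103 and 0.197) and Tap1 (1.13 and 0.88, 0.103 and 0.259) were lost with subgroup 2 or subgroup 1 alone, and those of Psmb8 (0.97, 0.0925) and H2-Q2 (-3.50, 0.144) with subgroup 1 alone. Between the paraspinal subgroups no gene passed, of the 41 or of all genes tested (0%). That fit also held the 4 GEM-PNST libraries, so their spread enters its SE and p-values. At an unadjusted p under 0.05 there was 1, B2m, against 12.7% of all genes, with 1055 and 1211 CPM in subgroup 2 and 589 and 488 CPM in subgroup 1 (1.06 ± 0.39, adjusted p = 0.337). DESeq2 called 1 gene (8.19% of all genes) and limma-voom 4 (32.9%). H2-D1 lay higher in subgroup 2 in both libraries (1.501 ± 0.753, adjusted p = 0.467), and its ratio to H2-K1 counts was 0.915 and 1.00 in subgroup 2 and 0.485 and 0.564 in subgroup 1. In 16 of the 41 genes both subgroup 2 libraries lay above both of subgroup 1 and in 6 below, against 34.6% and 34.9% of all genes. The class II chains did not divide the subgroups, since library 1 of subgroup 1 was the highest and library 2 the lowest paraspinal library in H2-Aa and H2-Eb1.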

How the data were processed

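RNA was sequenced from 20 tumors, 1 library each. The authors deposited raw counts of reads per gene. TopHat, HISAT2, featureCounts and the mm10 genome are named, with no role or version, per the submitters' processing notes. The strand setting, the annotation and the treatment of reads that match several copies are not given in the sources used here. Extraction used RNeasy Plus Micro columns, and Nextera XT was the library kit, per the labels' protocols. Sequencing runs were read from the names of alignment files in the deposited sample table.

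The counts were tested with edgeR 4.0.16 (R 4.3.3; limma 3.58.1, DESeq2 1.42.0 as alternatives). Genes kept by filterByExpr over all 20 libraries (16589 of 24062, with 95.8% to 99.97% of counts) entered quasi-likelihood fits with TMM scaling and robust dispersion, each on the libraries compared. A gene passed at a Benjamini-Hochberg adjusted p below 0.05 over all 16589 genes, two-sided, and errors are SE. Log2 CPM used a prior count of 2. The labels do not say that libraries came from separate animals, so p-values measure only the spread between these libraries, which may be technical. Of 78 library pairs within groups, none agreed within sampling noise (lowest chi-square per degree of freedom 23.9). Genes named with values were the coded list of class II, class I, loading and immunoproteasome genes, and other H2- genes that passed in any comparison or averaged 5 CPM or more. From the other lists they were the genes of lowest p between GEM-PNST and paraspinal tumors, up to 4, or 2 where none passed. Cd22, and the remaining H2- genes with values, were chosen after their values were seen. The values of 1 gene, with its correlation among the 6 pairs, are not reported here. The genes and lists were chosen with earlier results of these data known. Alternatives were DESeq2, limma-voom, RLE scaling, no or a stricter filter, summed class I copies, 1 fit for all libraries, single runs or subgroups, the replicate number as a block, and leaving out libraries.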

Additional observations from a re-analysis of the deposited data

Results flagged for a closer look

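Of 39 items tested in GEM-PNST, H2-T24 was the 1 in which a single library stood far from the others of its group. The items were the named antigen presentation genes, the log2 ratio of class II to class I, and the share of counts in the antigen presentation genes. GEM-PNST 2 had 0.271 CPM, against 4.95, 6.47 and 4.94 CPM in GEM-PNST 1, 3 and 4, and its gap to the nearest library was 0.906 of the range in log2 CPM, above Dixon's critical value for 4 libraries. Chance alone places about 1 in 20 groups past that value. The fall of H2-T24 against neurofibroma also passed without GEM-PNST 2 (-2.26, edgeR adjusted p = 4.54e-07).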

How the results depend on the processing

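Percentages in brackets are the shares of all genes in the same fit. Of the 41 genes, 0 passed between GEM-PNST and paraspinal tumors by edgeR (10.2%), and 24 had an unadjusted p under 0.05 (32.7%). By DESeq2 15 passed (29.4%), by limma-voom 1 (17%) and in 1 fit of all 20 libraries 25 (42.6%). Without GEM-PNST libraries 1 and 2, 2 passed (7.41%). With 1 library left out 0 to 12 passed, the 12 without GEM-PNST 2 (8.82%). Between GEM-PNST and neurofibroma 33 passed (73.1%), 19 by limma-voom (61.7%) and 12 without GEM-PNST libraries 1 and 3 (69.9%). With 1 library left out 24 to 34 did (71.1% to 72.6%). Between paraspinal tumors and neurofibroma 18 passed (59.4%), and 15 to 17 with 1 library left out (52.8% to 59.3%). Between the subgroups 0 passed (0%), and 1 by DESeq2 (8.19%) and 4 by limma-voom (32.9%). The cause was not tested, beyond the smaller number of libraries where some were left out. The library numbers do not pair samples by the labels, and same-numbered libraries did not deviate together (r of -0.06, 0.12, 0.06 and 0.10 between GEM-PNST and neurofibroma). With the replicate number as a block, 8 genes passed between paraspinal tumors and neurofibroma (16.6%) and 11 between GEM-PNST and neurofibroma (43.4%).

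Directions reversed in GEM-PNST against neurofibroma for H2-Bl by limma-voom (-0.027) and without GEM-PNST replicate 1 (-0.26, in a range of -0.26 to 3.40 when 1 library was left out), and for Ciita with the replicate block (-0.30). Without GEM-PNST libraries 1 and 3 they reversed for Ciita (-1.003), H2-Ob (-0.44), H2-Bl (-2.80) and H2-T10 (-0.45). Over named genes, 72 of 661 values in that comparison lost their call and 5 gained one. Class ratios kept their direction when 1 library was left out, with log2 differences of 0.43 to 2.03, 0.60 to 1.08 and 1.33 to 2.93 for GEM-PNST minus paraspinal, paraspinal minus neurofibroma and GEM-PNST minus neurofibroma. With 1 neurofibroma left out, r of Ciita and H2-Ab1 was 0.92 to 0.96 and that of Flt3 and H2-Ab1 0.08 to 0.49. Genes under about 1 CPM rest on few reads.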
